A study of Homo sapiens with 36 samples.

Results

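The 9 genes described here, RGS16, FGFR2, ZBTB20, POU2F2, CDKN2B, FRMD5, IFFO2, PODXL and B3GALT5, were taken by name from the 15186 genes of the deposited count table. They are genes outside the cytokine families that had been picked because their counts were lower with the synthetic glucocorticoid dexamethasone (dex) in at least one siRNA condition, so the dex differences below chose them and are given as descriptions with no test. All 9 had a count of at least 9 in every library. The cells were U2OS, a human osteosarcoma line, stably transfected with the glucocorticoid receptor alpha (GR) and kept in low-glucose medium with serum. A pair of siRNAs was delivered by lipid transfection, and 48 h later the cells received 100 nM dex or the ethanol vehicle for 8 h. The 6 siRNA conditions were siNSsiNS (the control siRNA only), siHic5siNS, siCHD9siNS, siBRMsiNS, siCHD9siHic5 and siBRMsiHic5, each with vehicle and with dex, which gave 12 groups of 3 libraries. The study asked how removal of Hic-5, a GR coregulator encoded by TGFB1I1, bears on GR target genes when the chromatin remodelers CHD9 or BRM (encoded by SMARCA2) are also reduced. The labels call the 3 replicates of a group biological and from different days; all come from 1 transfected line.

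GR is a hormone-activated transcription factor that moves into the nucleus when dex binds it. It raises some genes by binding DNA, often near a palindromic sequence, and lowers others by tethering to factors such as NF-kB and AP-1, by binding to negative elements, or by routes that need newly made protein. Cytokine genes are the best known repressed targets, and the genes here have other roles: signalling (RGS16, FGFR2), transcription (ZBTB20, POU2F2), the cell cycle (CDKN2B), the cytoskeleton and cell surface (FRMD5, IFFO2, PODXL) and glycan synthesis (B3GALT5). Because dex was applied for hours, direct and indirect responses cannot be told apart.

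The sequence before the start site is shown for the 4 genes with a single start site in the RefSeq table (GRCh38.p14), to show their base composition and the GC boxes and CCAAT matches described below. Each run is the 250 bases before the start, read 5′ to 3′ on the gene's strand, and capitals mark the GC box GGGCGG and CCAAT on either strand. The runs cover chr1:182604390-182604639 (RGS16), chr9:22009306-22009555 (CDKN2B), chr19:42132447-42132696 (POU2F2) and chr1:18956677-18956926 (IFFO2), each on the minus strand.
RGS16: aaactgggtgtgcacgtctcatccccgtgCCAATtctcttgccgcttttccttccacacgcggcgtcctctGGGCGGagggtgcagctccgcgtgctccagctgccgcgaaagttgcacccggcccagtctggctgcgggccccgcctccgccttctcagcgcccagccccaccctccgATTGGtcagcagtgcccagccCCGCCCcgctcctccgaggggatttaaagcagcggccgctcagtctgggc
CDKN2B: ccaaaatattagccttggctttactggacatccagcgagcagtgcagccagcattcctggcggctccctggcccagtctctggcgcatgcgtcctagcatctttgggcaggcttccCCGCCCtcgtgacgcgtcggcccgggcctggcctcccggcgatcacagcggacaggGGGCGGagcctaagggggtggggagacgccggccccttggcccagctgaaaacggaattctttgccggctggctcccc
POU2F2: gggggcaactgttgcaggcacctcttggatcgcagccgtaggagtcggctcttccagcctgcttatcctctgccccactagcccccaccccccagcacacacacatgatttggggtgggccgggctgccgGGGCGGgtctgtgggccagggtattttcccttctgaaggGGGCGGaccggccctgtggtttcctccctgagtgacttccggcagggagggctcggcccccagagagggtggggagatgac
IFFO2: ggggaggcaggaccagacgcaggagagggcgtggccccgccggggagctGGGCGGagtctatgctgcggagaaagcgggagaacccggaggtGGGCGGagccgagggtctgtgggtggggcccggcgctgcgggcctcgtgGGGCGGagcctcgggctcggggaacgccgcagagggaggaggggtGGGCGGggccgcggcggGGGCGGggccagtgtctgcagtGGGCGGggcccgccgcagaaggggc

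The 4 runs are rich in G and C, at 68.4% (RGS16), 66.4% (CDKN2B), 66.4% (POU2F2) and 78.4% (IFFO2), against a median of 58.0% over all start sites. IFFO2 carries 6 GC boxes and the other 3 carry 2 each; RGS16 also carries 2 CCAAT matches. Windows from 250 bases before to 50 after a start site were then searched on both strands for 8 of the 9 genes (21 windows; PODXL had no entry). The palindromic receptor element (AGAACA, 3 free bases, TGTTCT) was in 0 of the 21 windows and in 0.00285% of all 35116 windows. AGAACA alone, which is contained in that palindrome, was in 2 windows, both of ZBTB20, against 14.8% of all windows. The negative element (CTCC and GGAGA, side by side or with 1 or 2 free bases between) was in 0 windows (1.72% of all), as was the NF-kB sequence (GGG, 2 free bases, TTTCC; 1.91% of all). The AP-1 sequence TGANTCA, where N is any base, was in 4 windows of ZBTB20 and FRMD5 (7.71% of all). GC boxes were in 10 of the 21 windows, a share close to the 45% of all windows. Each of the 8 genes had at least 1, but a gene had up to 8 windows, so the 45% is no measure for that count. A missing match says only that these letters are not in this window.

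In the annotation of the same genome (GENCODE), RGS16 spans chr1:182598623-182604408, FGFR2 chr10:121478334-121598458, ZBTB20 chr3:114314501-115147271, POU2F2 chr19:42086110-42196585 and CDKN2B chr9:22002903-22009363. FRMD5 spans chr15:43870761-44195252, IFFO2 chr1:18904281-18956686, PODXL chr7:131500262-131558217 and B3GALT5 chr21:39556442-39673137, the only 1 of the 9 on the plus strand. Exons of ZBTB20 overlap 3 genes on the opposite strand and 2 on the same strand, and IFFO2 shares 911 exonic bases with a same-strand gene. The same-strand gene AC093010.3 shares 15214 of the 31872 exonic bases of ZBTB20, and reads there cannot be told apart by strand. The 3 antisense genes share 210, 331 and 70 bases. Whether counting used strand is not given in the sources used here, so reads of ZBTB20 and of its antisense genes cannot be told apart either.

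The libraries held 27.4 to 47.1 M counts, and levels are given as CPM, a gene's count over the library's total in M, scaled by upper-quartile factors. The 28S ribosomal RNA RNA28S5 took over 1% of the counts in 11 libraries (up to 7.51%): the 8 libraries of replicates 2 and 3 with siBRMsiNS and siBRMsiHic5, both siHic5siNS libraries of replicate 3 and the siNSsiNS vehicle library of replicate 3. Its part in the results was not tested. Of 8 mesenchymal and bone markers, 6 were in the table with a summed level of 4039 to 7931 CPM, while 4 of 10 markers of other lineages were in the table with a summed level of 3.59 to 9.41 CPM. TGFB1I1 was reduced with Hic-5 siRNA to 22.2% of its level on the control background, 19.2% on the siCHD9siNS background and 18.9% on the siBRMsiNS background, and SMARCA2 was reduced with BRM siRNA to 27.2% and 20.9% on the control and Hic-5 backgrounds. The CHD9 transcript stood at 76.0% in the libraries labelled siCHD9siNS (edgeR adjusted p = 0.0806) and at 183% in the libraries labelled siCHD9siHic5 against siHic5siNS (edgeR adjusted p = 0.000364), which goes against the second label. It was also at 73.6% with siHic5siNS against siNSsiNS (edgeR adjusted p = 0.0288), with no CHD9 siRNA. Against siCHD9siNS, the libraries labelled siCHD9siHic5 held the CHD9 transcript at 177% (edgeR adjusted p = 0.0013), so its level was not constant on that background. No difference below is therefore assigned to loss of CHD9. GR itself (NR3C1) rose with Hic-5 siRNA to 134% on the control background and 131% on the siCHD9siNS background (edgeR adjusted p = 0.0109 and 0.0247) and stood at 106% on the siBRMsiNS background (edgeR adjusted p = 0.687), and whether this bears on the dex differences was not tested.

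With siNSsiNS, 8 of the 9 genes were lower with dex in all 3 pairs of replicate number, and 5 (FRMD5, POU2F2, IFFO2, B3GALT5 and PODXL) had all dex libraries below all vehicle libraries. Over all 15179 genes tested, 15% were lower in all 3 pairs and 2.81% had such separated groups. With siHic5siNS, all 9 genes were lower in all 3 pairs (21.9% of all genes) and all 9 had separated groups (5.44% of all genes). The median log2 ratio of dex to vehicle over the 9 genes was -0.47 with siNSsiNS and -1.05 with siHic5siNS, against 0.01 and -0.01 over all genes. Because the genes were chosen on these ratios, nothing is read from the counts.

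The separated groups numbered 7 of 9 with siCHD9siHic5 (3.5% of all genes), 4 with siBRMsiNS (2.69%), 3 with siCHD9siNS (11.2%) and 1, FRMD5, with siBRMsiHic5 (3.27%). The numbers lower in all 3 pairs were 7, 8, 7 and 5, against 20.3%, 22.3%, 30.3% and 20% of all genes. The median log2 ratio of the 9 genes was -0.55 with siCHD9siHic5, -0.52 with siBRMsiNS, -0.50 with siCHD9siNS and -0.38 with siBRMsiHic5. The lowest mean ratio of a gene was found with siHic5siNS for 8 of the 9, and for B3GALT5 with siCHD9siHic5. These ratios chose the genes and the share of all genes lowest there was not computed, so nothing is read from this count. FRMD5, POU2F2, IFFO2 and B3GALT5 were lower with dex in all 18 pairs, RGS16, FGFR2 and PODXL in 17, CDKN2B in 14 and ZBTB20 in 10. As a check of the hormone, 10 genes widely induced by glucocorticoids were read by edgeR's quasi-likelihood test, without a term for the vehicle and dex pairs. In each condition 4 to 5 of them rose. Of all genes, 0.343% rose with siNSsiNS, 0.725% with siHic5siNS, 0.929% with siCHD9siNS, 0.382% with siBRMsiNS, 0.428% with siCHD9siHic5 and 0.494% with siBRMsiHic5. TSC22D3, which encodes the leucine zipper protein GILZ, rose by 1.63 ± 0.25 (log2 ± SE, edgeR adjusted p = 0.000731) with siNSsiNS. A fit with a term for each vehicle and dex pair called more genes. Those called higher with dex then numbered 284 (siNSsiNS), 662 (siHic5siNS), 1688 (siCHD9siNS), 362 (siBRMsiNS), 490 (siCHD9siHic5) and 635 (siBRMsiHic5) of 15179.

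**Figure D1:**
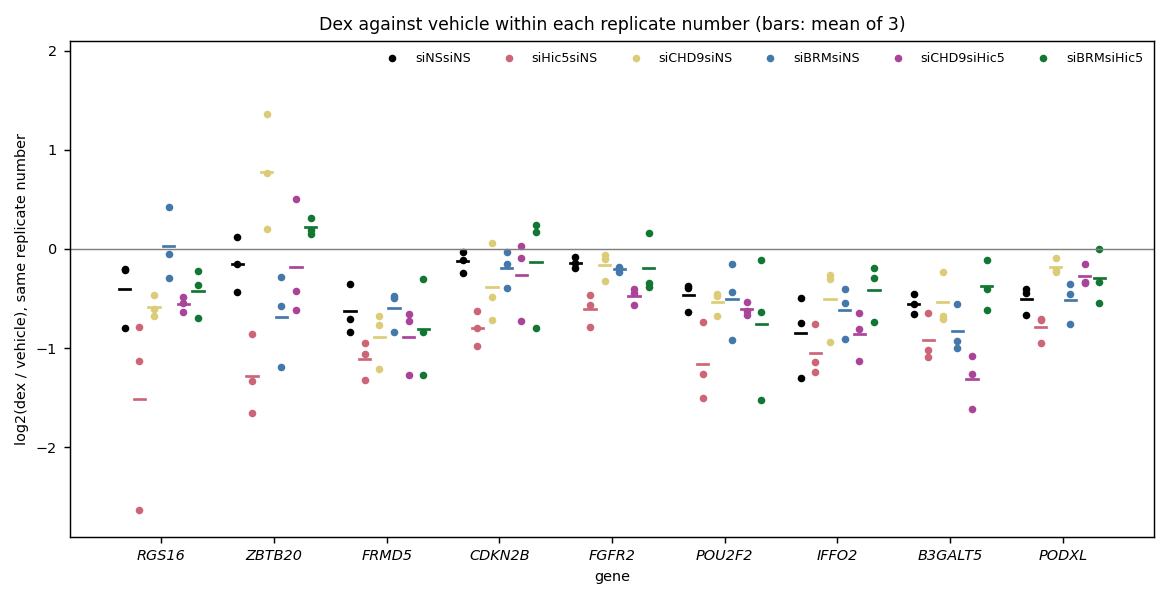
Log2 ratio of dex to vehicle within each replicate number (y axis) for the 9 genes (x axis), with 1 point a pair, a colour for each of the 6 siRNA conditions and bars at the mean of 3. The siHic5siNS points lie below 0 for every gene, and ZBTB20 is the gene whose siCHD9siNS and siBRMsiHic5 points all lie above 0.

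RGS16 speeds the GTP hydrolysis of G protein alpha subunits and so shortens receptor signals. With siNSsiNS its level was 1.94, 1.501 and 2.03 CPM in the vehicle libraries and 1.12, 1.30 and 1.76 CPM in the dex libraries of replicates 1, 2 and 3. With siHic5siNS the vehicle libraries held 10.8, 28.5 and 9.22 CPM and the dex libraries 6.23, 4.59 and 4.23 CPM. All 6 siHic5siNS libraries lay above all 6 siNSsiNS libraries, and vehicle replicate 2 stood far above the other two. The dex level was 0.578, 0.161 and 0.458 of the vehicle level in the 3 pairs, a mean log2 ratio of -1.52 ± 0.98 (SD, n = 3), and replicate 2 contributed more to it than the other 2 pairs together. With siNSsiNS the mean log2 ratio was -0.40 ± 0.34 (SD, n = 3) and the groups overlapped. With siCHD9siHic5 the vehicle libraries held 16.0, 11.2 and 12.3 CPM and the dex libraries 10.9, 8.02 and 7.96 CPM, again without overlap. In the siBRMsiNS libraries RGS16 stayed between 1.22 and 1.99 CPM and its mean ratio was 0.03 ± 0.36 (SD, n = 3).

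FGFR2 is a receptor tyrosine kinase for fibroblast growth factors. With siNSsiNS it stood at 20.1, 20.1 and 19.0 CPM with vehicle and 19.0, 18.2 and 16.7 CPM with dex. Each pair was lower with dex, yet the groups touched, since dex replicate 1 exceeded vehicle replicate 3. With siHic5siNS the values were 17.9, 21.9 and 25.2 CPM and 13, 14.9 and 14.6 CPM, and with siCHD9siHic5 they were 45.4, 43.1 and 40.3 CPM and 34.3, 29.1 and 29.6 CPM. These were the 2 conditions with separated groups, and their mean log2 ratios were -0.60 ± 0.17 and -0.47 ± 0.083 (SD, n = 3 each). Its highest group was siCHD9siHic5 vehicle, whose 3 libraries lay above every other FGFR2 library.

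ZBTB20 is a zinc finger repressor of the BTB family. It was the 1 gene of the 9 that was higher with dex in all 3 pairs of a condition, and this was so in 2 conditions. With siHic5siNS it stood at 6.60, 9.07 and 6.51 CPM with vehicle and 2.62, 2.88 and 3.59 CPM with dex, a mean log2 ratio of -1.28 ± 0.40 (SD, n = 3) with no overlap. With siCHD9siNS it stood at 1.74, 3.17 and 2.31 CPM with vehicle and 4.46, 3.64 and 3.93 CPM with dex, so all 3 dex libraries were the higher ones and the mean ratio was 0.78 ± 0.58 (SD, n = 3). With siBRMsiHic5 the values were 2.18, 2.08 and 2.101 CPM and 2.42, 2.58 and 2.40 CPM, again higher with dex in all 3 pairs by a mean of 0.22 ± 0.085 (SD, n = 3). The vehicle level itself was low in those 2 conditions: their 6 vehicle libraries lay below the 12 vehicle libraries of the other 4 conditions. With siCHD9siHic5, dex replicate 1 stood at 11.9 CPM against 5.68 and 5.20 CPM in replicates 2 and 3, and the ratios pointed in both directions.

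POU2F2 (OCT2) is an octamer-binding transcription factor best known in B cells. It stood at 12.5, 14.2 and 10.3 CPM with vehicle and 9.49, 9.16 and 7.95 CPM with dex under siNSsiNS, and at 8.57, 13.2 and 11.8 CPM and 5.15, 5.51 and 4.17 CPM under siHic5siNS. Vehicle levels overlapped between these conditions, and every siHic5siNS dex library lay below every siNSsiNS dex library. The mean log2 ratio was -0.47 ± 0.14 and -1.16 ± 0.39 (SD, n = 3 each). Both conditions with CHD9 siRNA were higher: their 6 vehicle libraries held 24.5 to 29.9 CPM and their 6 dex libraries 15.5 to 20.7 CPM, above all libraries of the other 4 conditions. With BRM siRNA the vehicle replicates were spread widely, from 6.43 to 14.6 CPM with siBRMsiNS and from 3.99 to 10.8 CPM with siBRMsiHic5.

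CDKN2B encodes p15INK4b, an inhibitor of the cyclin D kinases CDK4 and CDK6. With siNSsiNS it stood at 7.18, 6.37 and 5.48 CPM with vehicle and 6.08, 5.91 and 5.37 CPM with dex, overlapping groups with a mean log2 ratio of -0.13 ± 0.11 (SD, n = 3). With siHic5siNS it stood at 16.5, 23.1 and 23.6 CPM and 10.7, 13.3 and 12.01 CPM, with a mean ratio of -0.80 ± 0.18 (SD, n = 3). The 6 siHic5siNS libraries were above the other 30 libraries of this gene, of which the highest, vehicle replicate 2 with siCHD9siNS, held 10.03 CPM. siHic5siNS was the 1 condition of 6 in which the vehicle and dex groups of CDKN2B did not overlap.

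FRMD5 carries a FERM domain, a module that links membrane proteins to the cytoskeleton. It was the gene whose vehicle and dex libraries were separated in all 6 conditions. With siNSsiNS the values were 41.7, 31.8 and 36.1 CPM with vehicle and 23.3, 25.0 and 22.2 CPM with dex. With siHic5siNS they were 82.1, 95.7 and 83.9 CPM and 39.4, 38.2 and 43.6 CPM, and with siCHD9siNS 73.7, 85.5 and 70.5 CPM and 46.2, 36.9 and 41.3 CPM. The dex level in either condition was close to the vehicle level of siNSsiNS, and the ranges overlapped. The mean log2 ratio ran from -0.60 ± 0.20 with siBRMsiNS to -1.11 ± 0.20 with siHic5siNS (SD, n = 3 each).

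IFFO2 belongs to the intermediate filament family. With siNSsiNS it stood at 43.6, 70.5 and 34.4 CPM with vehicle, where replicate 2 was high, and at 26.1, 28.5 and 24.4 CPM with dex. With siHic5siNS it stood at 77.2, 98.3 and 106 CPM and 45.6, 44.7 and 44.7 CPM. The dex libraries were closely grouped in both conditions and the vehicle libraries were not. The mean log2 ratio was -0.85 ± 0.41 with siNSsiNS, -1.05 ± 0.26 with siHic5siNS and -0.86 ± 0.25 with siCHD9siHic5 (SD, n = 3 each).

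PODXL encodes podocalyxin, a sialomucin of the CD34 family that coats podocytes and other surfaces. With siNSsiNS it stood at 106, 140.4 and 95.0 CPM with vehicle and 78.2, 88.7 and 71.6 CPM with dex. With siHic5siNS it stood at 266, 380.0 and 314 CPM and 163, 231 and 163 CPM. Even the dex libraries of siHic5siNS lay above all vehicle libraries of siNSsiNS. The mean log2 ratio was -0.50 ± 0.14 with siNSsiNS and -0.79 ± 0.14 with siHic5siNS (SD, n = 3 each), and it was -0.18 ± 0.075 with siCHD9siNS, where the groups overlapped.

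B3GALT5 adds galactose in beta-1,3 linkage and makes type 1 glycan chains. Its vehicle libraries held 3.94, 4.27 and 3.64 CPM with siNSsiNS, 7.44, 6.11 and 7.90 CPM with siBRMsiNS and 0.809, 0.746 and 0.930 CPM with siCHD9siHic5. The matching dex libraries held 2.51, 3.12 and 2.47 CPM, 3.73, 3.22 and 5.38 CPM and 0.265, 0.312 and 0.441 CPM. None of these vehicle and dex groups overlapped. The mean log2 ratio was -0.55 ± 0.10, -0.83 ± 0.24 and -1.31 ± 0.27 (SD, n = 3 each). The highest group mean, 7.15 CPM in siBRMsiNS vehicle, was 21.1 times the lowest, 0.339 CPM in siCHD9siHic5 dex. The siCHD9siHic5 dex libraries held only 9, 10 and 20 counts of B3GALT5, so this range and the ratio of -1.31 rest on few reads.

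**Figure D2:**
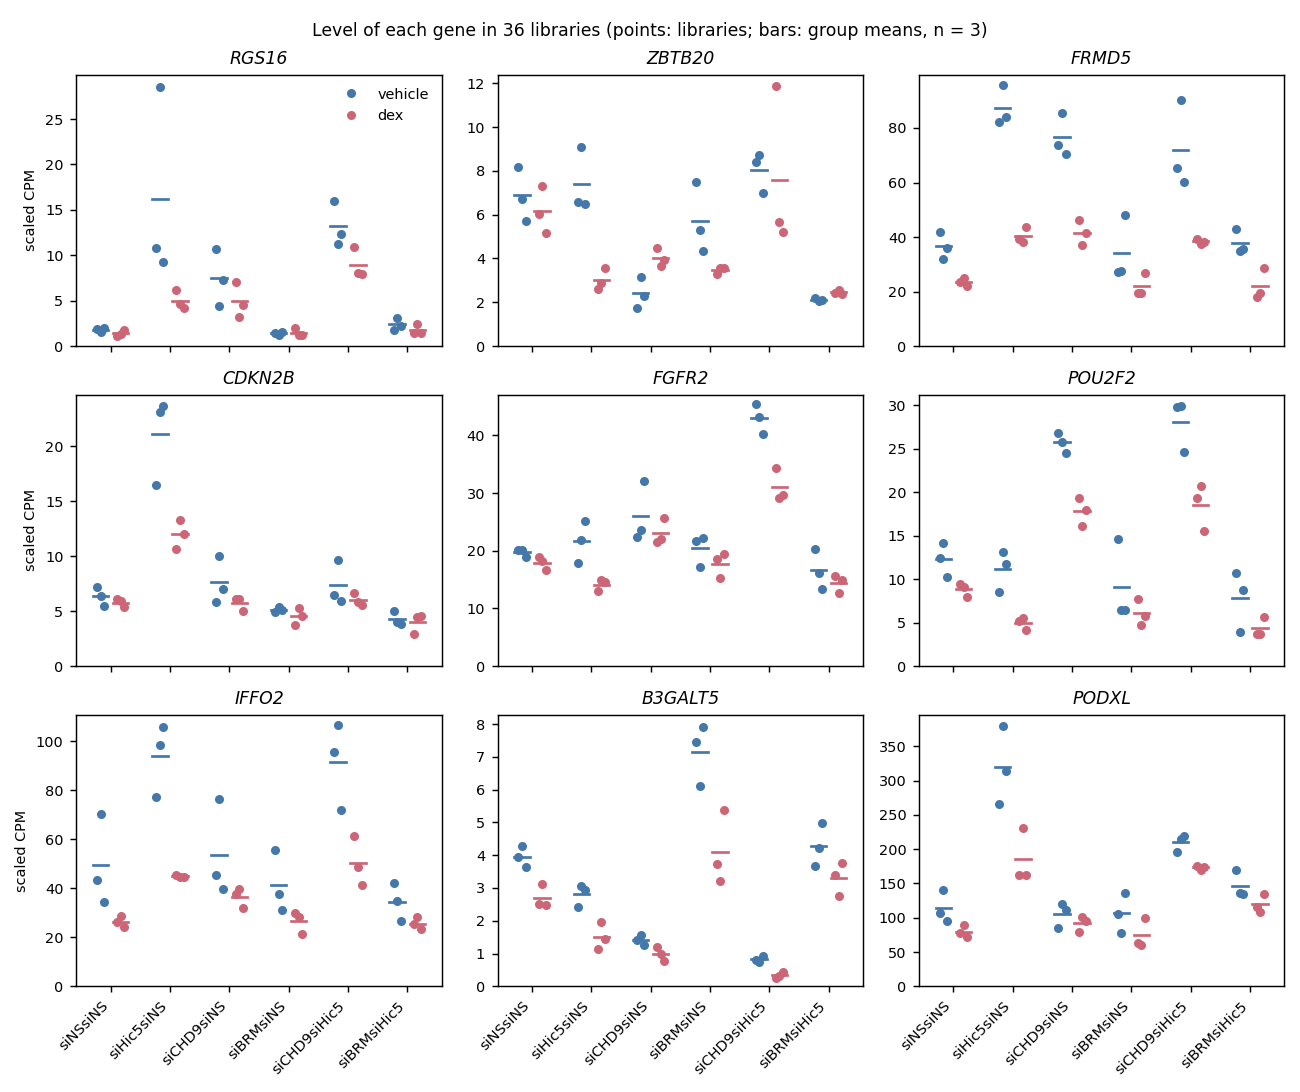
Scaled CPM (y axes, each from 0) of the 9 genes in all 36 libraries by siRNA condition (x axis), with vehicle in blue, dex in red and bars at the mean of 3. The siHic5siNS vehicle group is the highest for RGS16, FRMD5, CDKN2B, IFFO2 and PODXL, and the siCHD9siHic5 dex group is the lowest for B3GALT5, with a mean of 0.339 CPM.

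To compare siRNA conditions without the contrast that chose the genes, the vehicle and dex counts of a condition and replicate number were summed, which gave 18 sums, 3 for each condition. Differences were tested by edgeR's quasi-likelihood test over 14835 genes, with Benjamini-Hochberg adjusted p-values and a call at an adjusted p under 0.05. At an equal vehicle level a larger dex fall gives a smaller sum, and at an equal dex level it gives a larger sum. The sum is therefore not wholly free of the dex response, and the choice of genes can push it in either direction. Vehicle or dex libraries taken alone are one side of the ratio that chose the genes. Where a gene passed the threshold there and not on the sums, its value is therefore given as a description with no p. Where a call on the sums was lost there, the p-value marks a limit of that call and is no independent test. Values below are log2 fold changes with their SE, and levels are the summed CPM.

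Hic-5 siRNA on the control background raised 5 of the 9 genes and lowered 1, against 26.5% of all genes raised and 29% lowered. RGS16 rose from 1.60 ± 0.260 to 10.4 ± 4.96 CPM (SD, n = 3 each), by 2.69 ± 0.35 (edgeR adjusted p = 1.28e-05). CDKN2B rose from 6.06 ± 0.604 to 16.4 ± 2.62 CPM, by 1.44 ± 0.17 (edgeR adjusted p = 5.97e-06). PODXL rose by 1.38 ± 0.18 (edgeR adjusted p = 1.58e-05), FRMD5 by 1.08 ± 0.15 (edgeR adjusted p = 2.95e-05) and IFFO2 by 0.87 ± 0.23 (edgeR adjusted p = 0.00411). In each of these 5 genes the 3 siHic5siNS sums lay above the 3 siNSsiNS sums. B3GALT5 fell from 3.31 ± 0.333 to 2.14 ± 0.375 CPM, a change of -0.63 ± 0.19 (edgeR adjusted p = 0.0119). Its call was lost without siNSsiNS replicate 2 (-0.55, adjusted p = 0.0513), without siHic5siNS replicate 1 (-0.50, adjusted p = 0.0624) and in the vehicle libraries alone (-0.49, adjusted p = 0.0506), all by edgeR.

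ZBTB20, FGFR2 and POU2F2 were not called in this comparison, with log2 fold changes of -0.35 ± 0.19, -0.08 ± 0.14 and -0.40 ± 0.26. Their 95% intervals were -0.76 to 0.05, -0.38 to 0.22 and -0.95 to 0.14. Both ZBTB20 and POU2F2 passed the threshold in the dex libraries alone, at -1.03 ± 0.25 and -0.84 ± 0.28, where siHic5siNS is also the condition with their lowest dex ratio. In the vehicle libraries alone the values were 0.10 ± 0.25 and -0.14 ± 0.28. The median over the 9 genes was 0.87 on the summed counts, and it was -0.03 over all genes tested. The libraries whose dex ratios chose the genes enter these sums, so nothing is read from the medians.

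**Figure D3:**
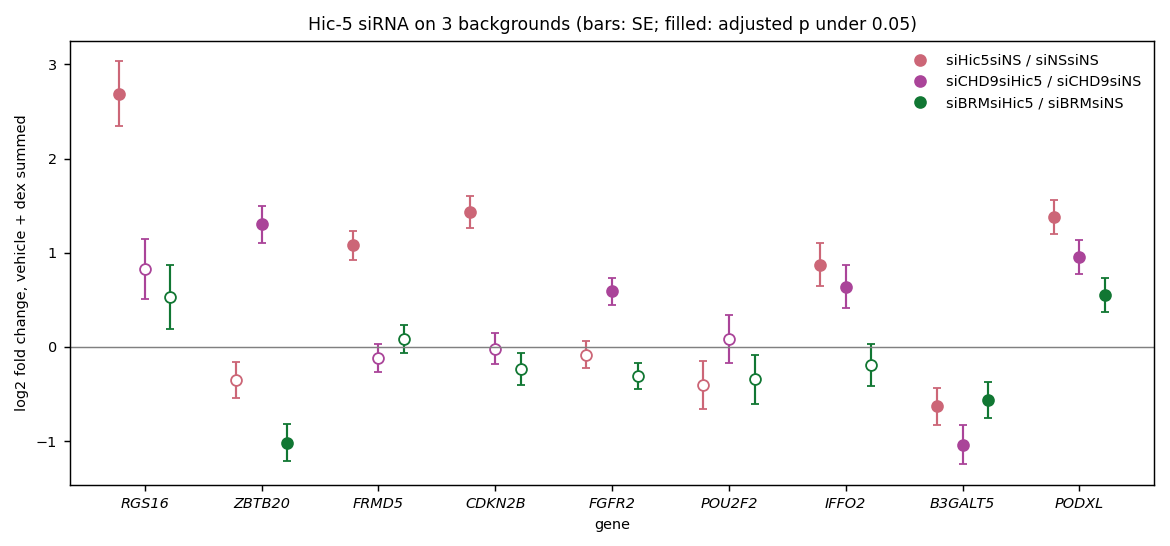
Log2 fold change of the summed level with Hic-5 siRNA (y axis, bars are the SE) for the 9 genes (x axis) on the control (red), siCHD9siNS (purple) and siBRMsiNS (green) backgrounds, from 3 sums against 3, with filled points at an adjusted p under 0.05. RGS16, FRMD5 and CDKN2B are filled on the control background only, while B3GALT5 is below 0 and PODXL above 0 on all 3.

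Hic-5 siRNA was also compared on the siCHD9siNS and siBRMsiNS backgrounds, and the 3 comparisons share no libraries. On the siCHD9siNS background 4 of the 9 genes rose and 1 fell, against 13.9% and 20.8% of all genes. The CHD9 transcript was itself at 177% in siCHD9siHic5 against siCHD9siNS. Changes that go with Hic-5 siRNA and with CHD9 level cannot be told apart there. ZBTB20 rose from 3.17 ± 0.198 to 7.81 ± 2.07 CPM (SD, n = 3 each), by 1.30 ± 0.19 (edgeR adjusted p = 0.000202), PODXL by 0.95 ± 0.18 (edgeR adjusted p = 0.00103) and FGFR2 by 0.59 ± 0.14 (edgeR adjusted p = 0.00492). B3GALT5 fell from 1.21 ± 0.145 to 0.585 ± 0.0903 CPM, a change of -1.04 ± 0.21 (edgeR adjusted p = 0.00159). IFFO2 rose by 0.64 ± 0.23 (edgeR adjusted p = 0.0383). That call was lost without replicate 1 or 3 of siCHD9siNS (0.58 and 0.49) or replicate 1 or 2 of siCHD9siHic5 (0.56 and 0.57), at edgeR adjusted p-values of 0.112 to 0.146, and in the dex libraries alone (0.46, adjusted p = 0.154). RGS16 was higher in all 3 siCHD9siHic5 sums, by 0.83 ± 0.32, and was not called by edgeR with upper-quartile factors (adjusted p = 0.0567). It was called with TMM factors (edgeR adjusted p = 0.0431), by DESeq2 (adjusted p = 0.0237), by limma (adjusted p = 0.0354) and without siCHD9siNS replicate 1 (1.17, edgeR adjusted p = 0.0227). FRMD5, CDKN2B and POU2F2 changed by -0.12 ± 0.15, -0.02 ± 0.17 and 0.09 ± 0.25 and were not called.

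On the siBRMsiNS background 1 of the 9 genes rose and 2 fell, against 7.26% and 12% of all genes. ZBTB20 fell from 4.63 ± 0.837 to 2.29 ± 0.0467 CPM (SD, n = 3 each), a change of -1.02 ± 0.20 (edgeR adjusted p = 0.0032), and its call was lost in the dex libraries alone (-0.49, edgeR adjusted p = 0.187). PODXL rose by 0.55 ± 0.18 (edgeR adjusted p = 0.0431) and B3GALT5 fell, with a change of -0.57 ± 0.19 (edgeR adjusted p = 0.0482). Both calls were near the threshold. The PODXL call was lost without replicate 1 or 2 of siBRMsiNS (0.51 and 0.38) or any 1 replicate of siBRMsiHic5 (0.50, 0.61 and 0.54), at edgeR adjusted p-values of 0.0571 to 0.172, and in the vehicle libraries alone (0.46, adjusted p = 0.088). The B3GALT5 call was lost without replicate 1 or 3 of siBRMsiNS (-0.55 and -0.43) or replicate 1 or 2 of siBRMsiHic5 (-0.51 for each), at edgeR adjusted p-values of 0.103 to 0.138, with TMM factors (-0.52, adjusted p = 0.0609) and in the dex libraries alone (-0.32, adjusted p = 0.31). The remaining changes were 0.53 ± 0.34 for RGS16, 0.08 ± 0.15 for FRMD5, -0.24 ± 0.17 for CDKN2B, -0.31 ± 0.14 for FGFR2, -0.34 ± 0.26 for POU2F2 and -0.19 ± 0.23 for IFFO2, none of them called; for FRMD5 the call appeared without siBRMsiNS replicate 3 (0.34, edgeR adjusted p = 0.0331).

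The change with Hic-5 siRNA was then compared between backgrounds, by contrasts added after the single comparisons had been seen. The change of FRMD5 differed by -1.20 ± 0.21 on the siCHD9siNS background and by -0.99 ± 0.21 on the siBRMsiNS background from that on the control background (edgeR adjusted p = 0.00152 and 0.00529), and that of CDKN2B by -1.45 ± 0.24 and -1.67 ± 0.24 (edgeR adjusted p = 0.000858 and 0.000459). With siCHD9siNS 3 of the 9 differences were called below 0 and 2 above it (ZBTB20, 1.65 ± 0.27, and FGFR2, 0.67 ± 0.20), where 20.3% of all genes were called in either direction. With siBRMsiNS 5 were called, all below 0, against 20% of all genes. Both contrasts share the control and siHic5siNS libraries. The CHD9 transcript was higher in siCHD9siHic5 than in siCHD9siNS, and its part in the contrast with siCHD9siNS was not tested.

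The libraries with CHD9 or BRM siRNA were compared with their matched libraries without it. With siCHD9siNS against siNSsiNS, 3 of the 9 genes rose and 2 fell, against 12.1% and 14.7% of all genes. RGS16 rose by 1.96 ± 0.34 (edgeR adjusted p = 0.000861), POU2F2 by 1.06 ± 0.26 (edgeR adjusted p = 0.00699) and FRMD5 by 1.01 ± 0.15 (edgeR adjusted p = 0.000328). B3GALT5 changed by -1.45 ± 0.20 (edgeR adjusted p = 0.000163) and ZBTB20 by -1.04 ± 0.19 (edgeR adjusted p = 0.00133). The ZBTB20 call was lost in the dex libraries alone (-0.62, edgeR adjusted p = 0.0802), and FGFR2 (0.38 ± 0.14 on the sums) passed the threshold in the vehicle libraries alone (0.40).

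With siCHD9siHic5 against siHic5siNS, 3 of 9 rose and 2 fell, against 23.2% and 26.4% of all genes. POU2F2 rose by 1.55 ± 0.26 (edgeR adjusted p = 0.000147) and FGFR2 by 1.05 ± 0.14 (edgeR adjusted p = 2.17e-05), and all 3 siCHD9siHic5 sums of each lay above the siHic5siNS sums. CDKN2B fell, from 16.4 ± 2.62 to 6.66 ± 1.01 CPM (SD, n = 3 each), a change of -1.30 ± 0.17 (edgeR adjusted p = 1.4e-05), as did B3GALT5, with -1.86 ± 0.21 (edgeR adjusted p = 3.69e-06). ZBTB20 rose by 0.61 ± 0.19 (edgeR adjusted p = 0.0147). That call was lost without siHic5siNS replicate 1 (0.52, adjusted p = 0.0642), without siCHD9siHic5 replicate 1 (0.38, adjusted p = 0.116) and in the vehicle libraries alone (0.12, adjusted p = 0.708), all by edgeR. PODXL (-0.39 ± 0.18 on the sums) passed the threshold in the vehicle libraries alone (-0.61), and RGS16 (0.10 ± 0.32 on the sums) in the dex libraries alone (0.84), with -0.29 in the vehicle libraries.

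With siBRMsiNS against siNSsiNS, B3GALT5 was the 1 gene of 9 called on the sums (5.18% of all genes rose and 2.78% fell). It rose from 3.31 ± 0.333 to 5.63 ± 1.02 CPM (SD, n = 3 each), by 0.77 ± 0.19 (edgeR adjusted p = 0.0294). The call was lost without siNSsiNS replicate 1 or 2 (0.75 and 0.85, adjusted p = 0.148 and 0.102), without siBRMsiNS replicate 3 (0.64, adjusted p = 0.114) and in the dex libraries alone (0.61, adjusted p = 0.0556), all by edgeR. ZBTB20 (-0.50 ± 0.19 on the sums) passed the threshold in the dex libraries alone (-0.83). With siBRMsiHic5 against siHic5siNS, 6 of the 9 genes fell and 1 rose, against 23.7% and 25.8% of all genes. CDKN2B fell to 4.12 ± 0.187 CPM, a change of -1.99 ± 0.17 (edgeR adjusted p = 6.36e-07), and RGS16 to 2.08 ± 0.619 CPM, a change of -2.31 ± 0.34 (edgeR adjusted p = 5.53e-05). IFFO2, FRMD5 and PODXL changed by -1.20 ± 0.23, -1.08 ± 0.15 and -0.92 ± 0.18 (edgeR adjusted p = 0.000505, 3.91e-05 and 0.00065). ZBTB20 changed by -1.16 ± 0.20 (edgeR adjusted p = 0.000181), a call lost in the dex libraries alone (-0.30, edgeR adjusted p = 0.363). B3GALT5 rose by 0.83 ± 0.19 (edgeR adjusted p = 0.00225). FGFR2 (-0.21 ± 0.14 on the sums) passed the threshold in the vehicle libraries alone (-0.39), with 0.03 in the dex libraries. The comparisons of siHic5siNS with siNSsiNS, siCHD9siHic5 and siBRMsiHic5 share the siHic5siNS libraries, and those with siNSsiNS share the siNSsiNS libraries, so opposite signs between them are not independent.

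**Figure D4:**
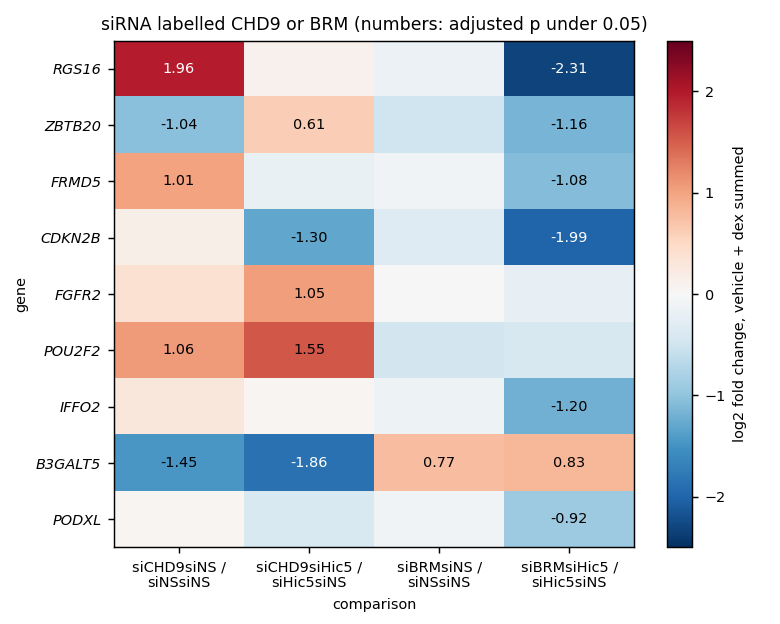
Log2 fold change of the summed level (colour, red higher and blue lower) for the 9 genes (rows) in 4 comparisons of libraries with and without siRNA labelled CHD9 or BRM (columns, 3 sums against 3), with the value printed where the adjusted p was under 0.05. CDKN2B, RGS16 and IFFO2 are lower in siBRMsiHic5 than in siHic5siNS, and POU2F2 is higher in both columns of CHD9 siRNA.

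Across the 12 group means of log2(CPM + 0.5), the Pearson correlation of B3GALT5 was below 0 with each of the other 8 genes. It ran from a weak -0.20 with ZBTB20 to -0.72 with RGS16. Of the 36 pairs of genes, 19 had a correlation above 0.5, and the highest were 0.91 for FGFR2 with POU2F2 and 0.91 for FRMD5 with IFFO2. The share over all pairs of genes was not computed, so nothing is read from the count of 19. The lowest positive values were 0.13 for CDKN2B with FGFR2 and 0.17 for POU2F2 with each of CDKN2B and PODXL. These correlations describe 12 groups that share libraries across genes, and the dex differences that chose the genes enter them.

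**Figure D5:**
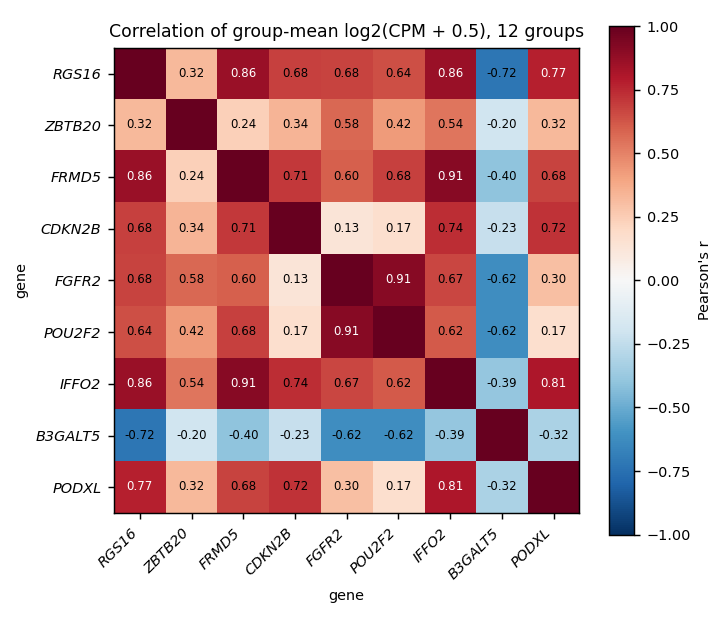
Pearson correlation (colour and printed value, from -1 to 1) between the 9 genes (both axes) over the 12 group means of log2(CPM + 0.5). The row and column of B3GALT5 are below 0 throughout, and the block of RGS16, FRMD5 and IFFO2 has values of 0.86 to 0.91.

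The genes whose group means were most like those of a member were, by Pearson correlation over the same 12 groups, OSBPL3 (0.985) and CMTM7 (0.964) for POU2F2, SYTL5 (0.974) and C14orf105 (0.958) for B3GALT5, and SERPINH1 (0.967) and ARAP3 (0.965) for CDKN2B. PARP8 (0.963) and PLK3 (0.962) were nearest to RGS16, SEMA3A (0.957) and KITLG (0.955) to FGFR2, and OSMR (0.961) and DLGAP4 (0.956) to PODXL. ZNF697 was among the nearest 2 of both FRMD5 (0.937) and IFFO2 (0.942, with TRIM8 at 0.948), and GSN-AS1 (0.941) and ATM (0.938) were nearest to ZBTB20. The values describe likeness over all genes tested and carry no test.

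Relatives of the 9 genes were read in the same fits, where 26.5% of all genes rose and 29% fell with siHic5siNS against siNSsiNS. Among 5 other genes with a CDKN symbol, 4 fell with siHic5siNS against siNSsiNS, the comparison in which CDKN2B rose (median log2 fold change -1.28, against -0.03 over all genes). CDKN3 changed by -2.07 ± 0.21, CDKN1B (p27) by -1.41 ± 0.19, CDKN2C (p18) by -1.28 ± 0.24 and CDKN2D (p19) by -0.74 ± 0.13, with edgeR adjusted p-values of 1.91e-06, 2.12e-05, 0.000342 and 0.000218. MTAP, a neighbour of CDKN2B on the chromosome, rose by 0.41 ± 0.12 (edgeR adjusted p = 0.0106). Of 12 other RGS genes, 4 rose and 0 fell in the same comparison, a share of rises close to that of all genes (median -0.03); RGS2 rose by 0.98 ± 0.17 (edgeR adjusted p = 0.000196). In a fit of the dex response with a term for each vehicle and dex pair, 1 of the 12 rose and 1 fell with siNSsiNS (1.87% and 0.626% of all genes), 3 rose and 3 fell with siHic5siNS (4.36% and 4.57%), and 0 rose and 4 fell with siCHD9siNS (11.1% and 13%). RGS2 was the riser with siNSsiNS, by 0.68 ± 0.15 (edgeR adjusted p = 0.0201), and RGS5 was among those that fell with siHic5siNS, at -0.43 ± 0.10 (edgeR adjusted p = 0.0115). Without that term 0 of the 12 were called with dex in any condition.

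Of 17 other genes of the FGF pathway, 1 rose and 6 fell with siHic5siNS against siNSsiNS, where the share of falls was near that of all genes (29%; median 0.11). The receptor genes FGFRL1 and FGFR3 changed by -1.36 ± 0.19 and -0.96 ± 0.21 (edgeR adjusted p = 2.43e-05 and 0.00119), and the ligand gene FGF1 rose by 0.53 ± 0.22 (edgeR adjusted p = 0.0499). In the fit with a term for each pair, FGF1 fell with dex in 4 of the 6 conditions: siHic5siNS, siCHD9siNS, siBRMsiNS and siCHD9siHic5, where 4.57%, 13%, 1.53% and 1.52% of all genes fell in that fit. It was not called without that term. The largest of these FGF1 falls was -0.83 ± 0.13 (edgeR adjusted p = 0.000275), with siHic5siNS. Of 10 other ZBTB genes, 6 rose and 3 fell with siHic5siNS (26.5% and 29% of all genes; median 0.58), where ZBTB20 was not called. ZBTB7A rose by 1.07 ± 0.12 and ZBTB44 by 0.66 ± 0.13, and ZBTB18 changed by -1.02 ± 0.12 (edgeR adjusted p = 3.04e-06, 0.000433 and 7.68e-06). ZBTB16 (PLZF) was the 1 of the 10 called with dex without the pair term, and it rose in all 6 conditions, by 1.61 ± 0.30 with siNSsiNS (edgeR adjusted p = 0.00634). Of the other POU genes POU2F1 and POU6F1 and the coactivator gene POU2AF1 (OCA-B), 1 was called: POU2F1 (OCT1) changed by -0.62 ± 0.12 with siHic5siNS (edgeR adjusted p = 0.00056).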

How the data were processed

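Total RNA of 36 U2OS libraries was sequenced. The submitters' processing notes name TopHat2 2.1.1, edgeR and the build GRCh38 (hg38) for the authors' steps, and for the read counter and gene models nothing is stated in the labels. The deposited table of 15186 genes is named as upper-quartile-normalised CPM, yet all its values are whole numbers, with library totals of 27.4 to 47.1 M and upper quartiles of 1732 to 2973, so they were taken as raw counts. No column belonged to another series (0). The 9 genes, the gene lists and the motifs were chosen with earlier results of these data known.

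From the counts, edgeR 4.0.16 in R 4.3.3 (glmQLFit and glmQLFTest, upper-quartile factors, genes with a CPM above 1 in at least 3 samples) fitted 18 sums of vehicle and dex counts with 6 condition means and 12 residual degrees of freedom (14835 genes), and 36 libraries with 12 group means and 24 residual degrees of freedom (15179 genes). The p-values are two-sided and Benjamini-Hochberg adjusted over all genes tested, with a call at 0.05. On simulated data, Hic-5 siRNA on the control background was simulated over 14835 genes: 29.2% of 1.5-fold changes were found, as were 78.6% of 2-fold and 95.4% of 4-fold changes, with 7 false calls.

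Vehicle and dex libraries of a condition and replicate number were paired: residual correlations over the 18 pairs were 0.458 to 0.922. Across siRNA conditions every pair passed 0.1 in 4 of 7 comparisons (range -0.222 to 0.712). The 36 replicate pairs were checked for copies (lowest chi-square per degree of freedom 9.41). Named relatives are those called in any comparison, up to 4 a list with the smallest p, and the text gives a part of them; some genes that the naming rules pick are not reported here. The alternatives were TMM factors, DESeq2 1.42.0, no filter, limma 3.58.1 on log2(CPM + 0.5), vehicle or dex libraries alone, the replicate block and each unit left out.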

Additional observations from a re-analysis of the deposited data

Results flagged for a closer look

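In 10 cases the change of a gene with Hic-5 siRNA differed between backgrounds by an interaction contrast on the summed counts (edgeR quasi-likelihood, adjusted over 14835 genes), a test added after the single comparisons had been seen. Values are the log2 fold change on the siCHD9siNS or siBRMsiNS background minus that on the control background. A p-value from dex libraries alone marks a limit of a call and is no independent test, since those libraries are one side of the ratio that chose the genes. The CHD9 transcript was at 177% in siCHD9siHic5 against siCHD9siNS, and its part in the differences on that background was not tested.

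Between siCHD9siNS and the control background, RGS16 differed by -1.86 (edgeR adjusted p = 0.0109), FRMD5 by -1.20 (edgeR adjusted p = 0.00152) and CDKN2B by -1.45 (edgeR adjusted p = 0.000858). ZBTB20 differed by 1.65 (edgeR adjusted p = 0.000912) and FGFR2 by 0.67 (edgeR adjusted p = 0.0274). The RGS16 difference was not called in the dex libraries alone (-0.98, edgeR adjusted p = 0.191). The FGFR2 difference was not called without siNSsiNS replicate 1 or 2, siHic5siNS replicate 1, siCHD9siNS replicate 1 or 2, or siCHD9siHic5 replicate 1 (edgeR adjusted p = 0.0571 to 0.0724).

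Between siBRMsiNS and the control background, RGS16 differed by -2.16 (edgeR adjusted p = 0.00589), CDKN2B by -1.67 (edgeR adjusted p = 0.000459) and FRMD5 by -0.99 (edgeR adjusted p = 0.00529). IFFO2 differed by -1.06 (edgeR adjusted p = 0.0291) and PODXL by -0.83 (edgeR adjusted p = 0.0309). The IFFO2 difference was not called without siNSsiNS replicate 1 or 3, siHic5siNS replicate 2 or 3, siBRMsiNS replicate 1 or siBRMsiHic5 replicate 3 (edgeR adjusted p = 0.0558 to 0.0681), nor in the dex libraries alone (-0.82, edgeR adjusted p = 0.0977). The PODXL difference was not called without siNSsiNS replicate 1 or 3, siHic5siNS replicate 2, siBRMsiNS replicate 3, or siBRMsiHic5 replicate 2 or 3 (edgeR adjusted p = 0.0506 to 0.0865), nor in the dex libraries alone (-0.54, edgeR adjusted p = 0.183).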

How the results depend on the processing

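Of 32 called member changes between siRNA conditions, 26 stayed called without any 1 unit, as did 7 of 10 differences between backgrounds. The 216 alternative values of the dex ratios moved by less than their SD. With 1 of 3 pairs left out the mean cannot move that far, so those values are no test of stability. A replicate block changed the call of 0 of 45 member values between siRNA conditions by edgeR (all 27 with Hic-5 siRNA and the 18 called with CHD9 or BRM siRNA). It moved the count of genes called with BRM siRNA on the control background from 1180 to 2173, which DESeq2 put at 2319, the dex libraries alone at 1795 and single left-out units at 7 to 2881. Left-out units gave 2237 to 3892 calls for CHD9 siRNA on the control background (3965 with all) and 1424 to 4933 for Hic-5 siRNA on the BRM background (2855 with all). With the replicate block as a term for each pair, genes called with dex numbered 379 (siNSsiNS; 52 without), 1355 (siHic5siNS; 133), 3654 (siCHD9siNS; 144), 594 (siBRMsiNS; 58), 720 (siCHD9siHic5; 69) and 903 (siBRMsiHic5; 76). DESeq2 gave 210 with siHic5siNS, 283 with siCHD9siNS and 118 with siBRMsiHic5. Left-out libraries gave 23 to 41, 71 to 111, 25 to 106, 19 to 76, 39 to 56 and 31 to 103, in the same order. Among changes with Hic-5 siRNA that were not called, the sign turned for ZBTB20 (0.10) and FGFR2 (0.14) with Hic-5 siRNA on the control background in vehicle libraries alone, and for CDKN2B on the CHD9 background with TMM factors (0.039), DESeq2 (0.038) and dex libraries alone (0.065). It also turned between left-out units for FGFR2 on the control background (-0.17 to 0.016), CDKN2B on the CHD9 background (-0.14 to 0.15) and, on the BRM background, FRMD5 (-0.035 to 0.34), POU2F2 (-0.53 to 0.053) and IFFO2 (-0.36 to 0.028). In the comparisons of CHD9 or BRM siRNA, 8 values that were not called turned sign in vehicle or dex libraries alone, among them RGS16 with siCHD9siHic5 against siHic5siNS (0.10 on the sums, -0.29 in vehicle libraries). The cause of these moves was not tested. With 3 units a condition, 29.2% of 1.5-fold changes were recovered in the data simulated for Hic-5 siRNA on the control background. That simulation changed 65 to 70 genes at each fold, against 8234 genes called in the data, so recovery in the data may differ. The other siRNA comparisons were not simulated.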

Other observations

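Relatives of PODXL, FRMD5 and IFFO2 were read in siHic5siNS against siNSsiNS (summed counts, edgeR quasi-likelihood), where 26.5% of all genes rose and 29% fell. Of 6 genes of the CD34 family and of podocalyxin partners, 1 rose and 3 fell. PODXL2, the closest relative of PODXL on the list, rose by 2.68 ± 0.23 (log2 ± SE, edgeR adjusted p = 4.33e-07), and ezrin (EZR), which binds podocalyxin, changed by -0.98 ± 0.19 (edgeR adjusted p = 0.000483). Of 13 FERM domain genes, 4 rose and 3 fell, close to the shares of all genes; among them were FRMD4A at 1.68 ± 0.15, moesin (MSN) at 1.2 ± 0.14 and radixin (RDX) at -1.03 ± 0.13 (edgeR adjusted p = 6.25e-07, 6.86e-06 and 8.24e-06). Of 8 intermediate filament genes, 3 rose and 3 fell. Lamin B1 (LMNB1) changed by -1.62 ± 0.19 and keratin 8 (KRT8) by -1.45 ± 0.29 (edgeR adjusted p = 4.8e-06 and 0.000584). Nestin (NES) had higher group means with siHic5siNS than with siNSsiNS, at 58.0 against 32.3 CPM with vehicle and 48.0 against 24.1 CPM with dex.

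Of 10 genes of beta-1,3-galactosylation and type 1 chains other than B3GALT5, 1 rose and 2 fell in that comparison. B3GNT3 changed by -1.40 ± 0.32 and B3GNT5 by -1.23 ± 0.23 (edgeR adjusted p = 0.00156 and 0.000345). B3GALT6 had higher group means with siHic5siNS than with siNSsiNS, at 18.2 against 14.4 CPM with vehicle and 19.1 against 14.7 CPM with dex. On the CHD9 background, where B3GALT5 also fell, 3 of the 10 fell (20.8% of all genes), with B3GNT3 at -1.67 ± 0.33 (edgeR adjusted p = 0.0013).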
